A study of Mus musculus with 58 samples.

Results

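Cholesterol synthesis and uptake genes were followed through the loss of 2 subunits of the SET1/COMPASS complexes and through retinoic acid (RA) differentiation in mouse embryonic stem (mES) cells. The list held 8 genes named by symbol. Of these, 6 (Hmgcs1, Idi1, Sqle, Lss, Dhcr7 and Insig1) had counted 3′ UTR intervals among the 20177 genes of the series, and Fdft1 and Cyp51 were not analysed here because none of their intervals was in the tables used. All cells were E14 mES cells of the 129/Ola strain, grown in serum with LIF. In DPY30–mAID cells, auxin degrades DPY30 through the OsTIR1 transgene, and SLAM-seq was done before auxin (0 h) and after 2 h, 8 h or 24 h with 3 replicates each. In RBBP5–FKBP cells, dTAG-13 degrades RBBP5, with the same 4 times and 3 replicates each. DPY30–mAID Kdm5a/b double-knockout (dKO) cells additionally lack the H3K4me3 demethylases KDM5A and KDM5B and were sampled without auxin and after 2 h, 4 h, 8 h, 24 h or 48 h, with 2 replicates each. The study picked 2 dKO clones, and the labels do not say which replicate came from which clone. For Quant-seq, DPY30–mAID cells without 4SU were given 1 µM RA without LIF for 8 h or for 1, 2, 4 or 6 days with DMSO or auxin, beside DMSO cells at 0 h, with 2 replicates each. Since both DMSO libraries of day 6 hold the same counts, they stand for 1 sample, and day 6 is given as values with no test.

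Cholesterol is built from acetyl-CoA through the mevalonate pathway. HMGCS1 makes HMG-CoA, the precursor of mevalonate, IDI1 isomerizes the isoprenoid units, FDFT1 joins them to squalene, SQLE oxidizes squalene, LSS closes the sterol rings, CYP51 removes a methyl group from lanosterol and DHCR7 carries out the last reduction to cholesterol. Most of these genes are targets of SREBP2, a transcription factor that is held in the endoplasmic reticulum with SCAP when sterols are plentiful. INSIG1 is one of the proteins that hold it there and is itself an SREBP target.

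SLAM-seq counts RNA made during a short pulse of 4-thiouridine (4SU, here 100 µM for 60 min), which is read as a T>C mismatch. Reads with a T>C mismatch (T>C reads) stand for newly made RNA and all reads for the RNA pool, and both are given per 1000000 reads of the library (CPM), with library sizes scaled by TMM factors within each line or, for Quant-seq, within that set. SLAM-seq libraries of DPY30–mAID and RBBP5–FKBP cells held 1721185 to 2852331 reads, those of dKO cells 5931269 to 7792404 reads and the Quant-seq libraries 1264241 to 2543632 reads. The reads covered 18.0 to 19.0 T positions each in the first 2 lines and 11.2 to 11.3 in dKO cells, so T>C levels were not compared between dKO cells and the other lines. The third DPY30–mAID library at 8 h stood apart, with 5.51% T>C reads where the next lowest library of that time had 9.82%. Reads cannot tell a lower number of cells that make an RNA from a lower amount per cell.

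On the GRCm38 build, the counted interval of Hmgcs1 lay at chr13:119706479-119708086, that of Sqle at chr15:59330918-59331192 and that of Insig1 at chr5:28076821-28078662, all annotated as 3′ UTR on the plus strand. Lss was read at chr10:76553069-76555479 with 99.0% of its reads, and Dhcr7 at chr7:143847518-143848410. Idi1 had 81.5% of its reads at chr13:8890636-8892451 and 18.4% at chr13:8890318-8890600. Between 94.9% and 97.4% of the Idi1 reads mapped to more than 1 place, so its values are uncertain and may hold reads of near-identical copies. Reads of Insig1 that mapped to more than 1 place made up 39.9% in DPY30–mAID, 39.2% in RBBP5–FKBP, 82.1% in dKO and 83.5% in Quant-seq libraries. In each set of libraries, this share was below 1% for the other 4 genes.

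The promoters of these genes were read from RefSeq (GRCm38.p6), in windows from 250 bases before to 50 bases after a start, and are shown for the letters that regulators of this pathway are known to bind. Of the 8 listed genes, 6 had a window, while Sqle and Fdft1 had none. The letters TCACNCCAC, a form of the sterol regulatory element, were searched on both strands and were in 1.24% of 32851 windows. Among the listed genes they were in the Hmgcs1 window alone, where the first base lies 137 bases before the start. The shorter form TCACNNCA was in 13.8% of all windows and in those of Hmgcs1, Cyp51 and Dhcr7, and at Hmgcs1 it overlaps the longer form. CCAAT, the letters bound by NF-Y, was in 37.4% of windows and in at least 1 window of all 6 genes. These matches are descriptions of the letters, and binding was not measured here. In the lines that follow, capitals mark TCACNCCAC and CCAAT or its reverse complement. The Hmgcs1 stretch is the 250 bases before the start at chr13:119690101-119690350, and the others are 60 bases at chr5:28071168-28071227 (Insig1), chr13:8885546-8885605 (Idi1), chr10:76531515-76531574 (Lss) and chr7:143830119-143830178 (Dhcr7), all on the plus strand.
Hmgcs1: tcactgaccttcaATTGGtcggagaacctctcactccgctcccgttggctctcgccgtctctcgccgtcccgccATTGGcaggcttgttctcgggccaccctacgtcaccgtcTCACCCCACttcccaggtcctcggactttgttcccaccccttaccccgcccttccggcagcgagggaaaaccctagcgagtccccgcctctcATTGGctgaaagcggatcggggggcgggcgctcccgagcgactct
Insig1: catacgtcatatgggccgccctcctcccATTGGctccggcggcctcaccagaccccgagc
Idi1: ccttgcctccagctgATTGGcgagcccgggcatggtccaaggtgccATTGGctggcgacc
Lss: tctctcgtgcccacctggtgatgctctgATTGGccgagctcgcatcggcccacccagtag
Dhcr7: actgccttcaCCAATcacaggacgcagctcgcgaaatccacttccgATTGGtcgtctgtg

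Before any ligand, a large share of the reads of these genes was newly labelled. In DPY30–mAID cells at 0 h, the labelled share was 43.2% ± 2.02 (SD, n = 3) for Insig1, 33.0% ± 3.73 for Sqle and 28.8% ± 3.36 for Hmgcs1, while the median gene had 18.5%. All 5 members with a mean of at least 50 reads lay above that median. In RBBP5–FKBP cells the shares were 33.6% ± 1.83 for Insig1, 18.8% ± 2.65 for Sqle and 18.0% ± 1.52 for Hmgcs1 (SD, n = 3), beside 10.4% for the median gene, and 6 of 6 members lay above it. In dKO cells, 4 of 6 members were above the median gene at 5.41%, and Hmgcs1 was not, at 5.08% ± 0.967 (SD, n = 2). In the unlabelled Quant-seq libraries at 0 h, where T>C reads are background, the highest member mean was 1.48%, for Sqle.

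**Figure D1:**
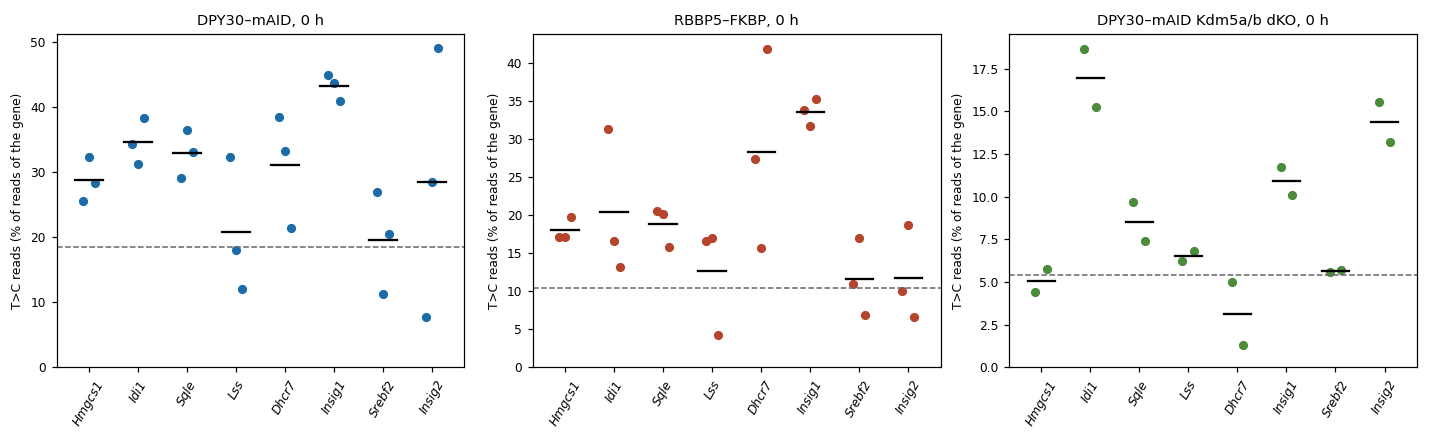
Share of the reads of each gene that carried a T>C mismatch at 0 h (y axis, percent), for 6 members, Srebf2 and Insig2 (x axis) in 3 lines. Points are libraries, black bars are means and the dashed line is the median of genes with at least 50 reads; Insig1 sits far above that line in all 3 lines, at a mean of 43.2%, 33.6% and 10.9%.

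In DPY30–mAID cells the newly made RNA of 4 of 6 members fell at 8 h of auxin, with Hmgcs1 falling furthest among them. Hmgcs1, the first committed step that was measured, had 133, 157 and 136 T>C CPM before auxin, then 92, 107 and 98.2 after 2 h, 46.7, 38.2 and 12.6 after 8 h and 61.7, 71.2 and 75.4 after 24 h. Its 8 h libraries were all below those of every other time, and its 24 h libraries lay between those of 8 h and 2 h. On the log2 scale the 8 h level was −2.13 ± 0.33 (SE) against 0 h (edgeR quasi-likelihood test, adjusted p = 2.1e-05). Insig1, the brake of the pathway, had 90.1, 51.8 and 72.2 T>C CPM before auxin, then 42.6, 18.2 and 20.8 after 8 h and 63.7, 85.6 and 80.5 after 24 h. It fell by 1.38 at 8 h (adjusted p = 0.0034) and its 24 h libraries lay within the range of 0 h. Sqle, the squalene epoxidase, had 37, 57 and 47.4 T>C CPM at 0 h and 26, 26.1 and 14.8 at 8 h, a log2 fold change of −1.08 ± 0.35 (adjusted p = 0.029). Idi1 had 36, 27.4 and 44.8 at 0 h and 27.2, 14 and 3.91 at 8 h (−1.26 ± 0.44, adjusted p = 0.044). All 3 of the 8 h Idi1 values were below those at 0 h, narrowly so in the first library. Lss and Dhcr7 had at most 25 T>C reads in a library and passed no test.

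These calls stood on a decrease shared by many genes. At 8 h, 16.1% of the 6317 genes tested were lower, the log2 fold change of all genes had a median of −0.72 and that of the members a median of −1.17. With T>C library sizes taken from T>C reads, which sets the median gene near 0 (−0.02), Hmgcs1 was the only member past the test, and the median of the members was −0.49. Insig1 (−0.63), Idi1 (−0.64) and Sqle (−0.35) then lay lower without passing. Hmgcs1 and Insig1 passed with every library left out in turn, and without the third library of 8 h they were at −1.74 and −1.21. Idi1 was lost without replicate 1, 2 or 3 at 0 h or replicate 2 or 3 at 8 h (adjusted p = 0.054 to 0.17), with a value of −0.80 without replicate 3 at 8 h, and Sqle without replicate 2 or 3 at 0 h or replicate 2 at 8 h (adjusted p = 0.0585 to 0.128).

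No member passed at 2 h, where 0.0% of the genes were lower, nor at 24 h, where 2.72% were lower; DESeq2 called Hmgcs1 and Sqle at 24 h. With library sizes taken from T>C reads 3 members passed at 24 h, Hmgcs1 (−0.91, adjusted p = 0.00037), Sqle (−0.99, adjusted p = 0.0081) and Idi1 (−1.03, adjusted p = 0.03). At an unadjusted p below 0.05, 0 members were lower at 2 h and 3 at 24 h. The 24 h values were Hmgcs1 −1.03 ± 0.32 (adjusted p = 0.055), Sqle −1.10 ± 0.35 (adjusted p = 0.063) and Idi1 −1.17 ± 0.44 (adjusted p = 0.13), and the median of the members was −1.13 against −0.14 for all genes. In a contrast of 24 h with 8 h that was added after the values were seen, Hmgcs1 rose by 1.09 ± 0.33 (adjusted p = 0.015) and Insig1 by 1.49 ± 0.33 (adjusted p = 0.0013), among 17.1% of genes that were higher. The median of the members in this contrast was 0.04, with 3 of 6 below 0, and that of all genes was 0.57. The Hmgcs1 rise was lost with library sizes taken from T>C reads (0.55, adjusted p = 0.054) and without replicate 2 or 3 at 24 h (adjusted p = 0.057 and 0.059).

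**Figure D2:**
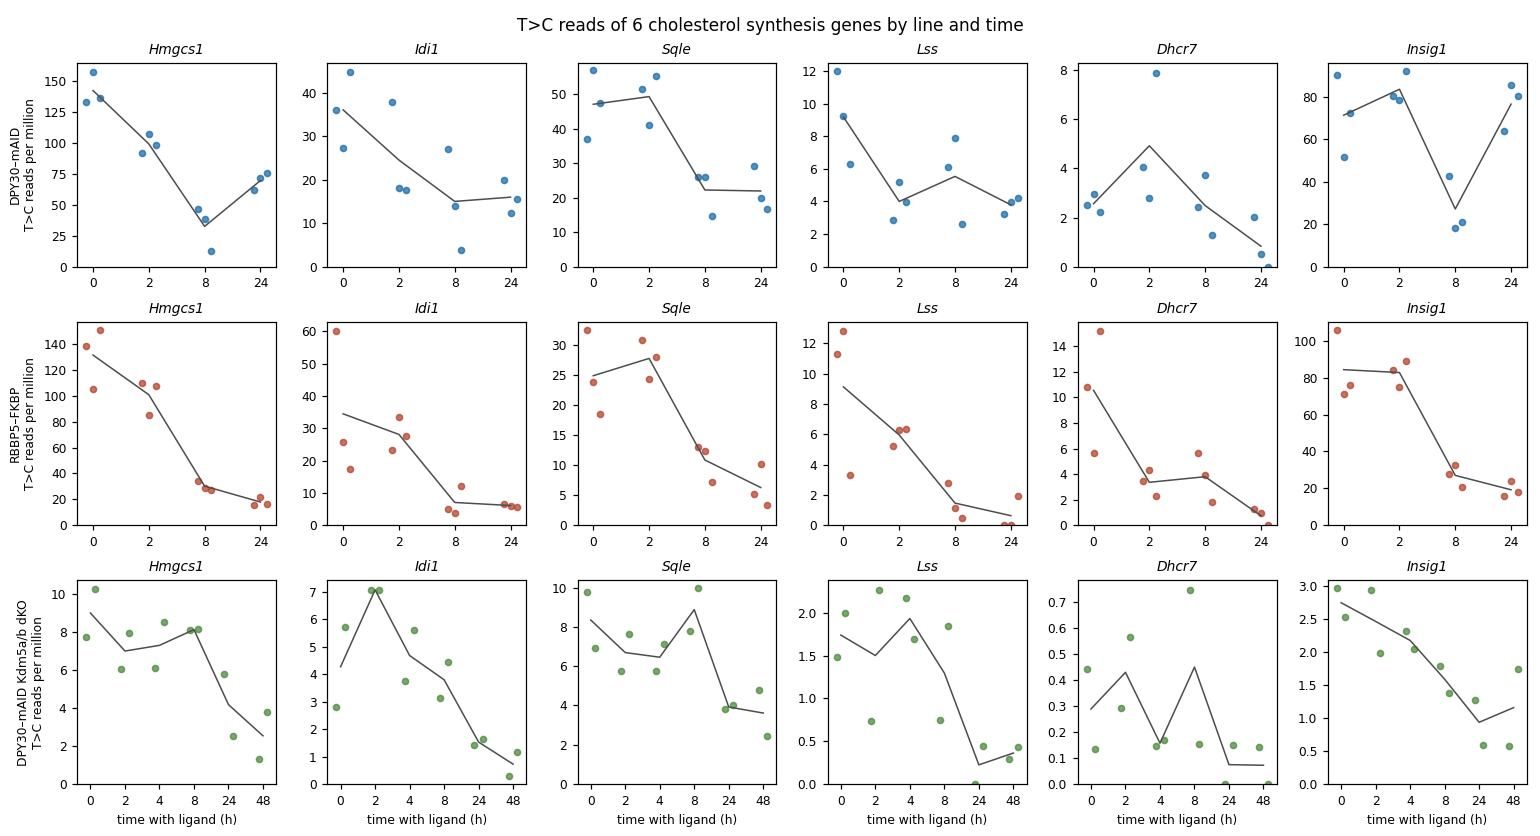
T>C reads as CPM of the library (y axis) of 6 member genes (columns) against hours of ligand (x axis) in 3 lines (rows). Points are libraries and lines join the means; Hmgcs1 drops from 133–157 to 12.6–46.7 at 8 h in DPY30–mAID cells and then partly returns, while in RBBP5–FKBP cells it drops to 15.7–21.5 at 24 h.

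In RBBP5–FKBP cells the newly made RNA of 3 members fell at 8 h and that of 6 of 6 members at 24 h of dTAG-13. Hmgcs1 had 139, 105 and 150 T>C CPM before dTAG-13, then 110, 84.9 and 107 after 2 h, 34.4, 28.8 and 27.5 after 8 h and 15.7, 21.5 and 16.8 after 24 h. The libraries of 8 h lay all below those of 2 h and above those of 24 h. It fell by 2.12 ± 0.24 on the log2 scale at 8 h (adjusted p = 9e-10) and by 2.86 ± 0.25 at 24 h (adjusted p = 2.7e-14). Insig1 went from 106, 71 and 76.1 T>C CPM at 0 h to 27.7, 32.7 and 20.8 at 8 h and 15.7, 23.8 and 18.2 at 24 h. It did not return at 24 h, with a log2 fold change of −2.13 ± 0.27 (adjusted p = 6.8e-09). Idi1 had 60.1, 25.9 and 17.4 at 0 h, 5.08, 3.95 and 12.2 at 8 h (−2.23 ± 0.44, adjusted p = 0.00034) and 6.55, 6.08 and 5.74 at 24 h. Sqle had 32.4, 23.8 and 18.5 at 0 h, 13, 12.4 and 7.22 at 8 h (−1.20 ± 0.42, adjusted p = 0.063) and 5.24, 10.3 and 3.35 at 24 h (−1.97 ± 0.43, adjusted p = 0.00041). The 8 h libraries of Sqle were all below those of 0 h, although it did not pass in edgeR then. DESeq2 did call it at 8 h (−1.22, adjusted p = 0.02). Lss, the ring-closing enzyme, had 24, 36 and 9 T>C reads at 0 h and 0, 0 and 4 at 24 h, and Dhcr7 had 23, 16 and 41 at 0 h and 3, 2 and 0 at 24 h. Both passed at 24 h (adjusted p = 0.0031 and 0.0014), and their fold changes rest on these few reads.

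Among all genes of RBBP5–FKBP cells, 7.52% were lower at 8 h and 25.9% at 24 h, with medians of −0.49 and −0.91. The members had medians of −1.88 and −2.67 in the same fits. No member passed at 2 h, where 0.252% of genes were lower, and 1 was lower at an unadjusted p below 0.05, while DESeq2 called 0. With T>C library sizes from T>C reads, the same 3 members passed at 8 h, and Hmgcs1 and Insig1 alone passed at 24 h. The others were then at −1.06 (Sqle, adjusted p = 0.24), −1.54 (Idi1, adjusted p = 0.051), −2.90 (Lss, adjusted p = 0.15) and −2.82 (Dhcr7, adjusted p = 0.12). The count of 6 at 24 h held with every library left out in turn. Between 8 h and 24 h, again a contrast added after the values were seen, no member was lower by the test (1.22% of genes were). DESeq2 also called 0, 2 members were lower at an unadjusted p below 0.05, and Hmgcs1 had a value of −0.75 ± 0.26 (adjusted p = 0.13).

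The responses of the 2 degron lines were compared in a fit of both, a comparison chosen after the values were seen. At 8 h no member was lower in the T>C reads of RBBP5–FKBP cells (0.0% of genes were; 0 members in DESeq2 or at an unadjusted p below 0.05), with differences of 0.01 ± 0.42 for Hmgcs1 and −0.26 ± 0.43 for Insig1 on the log2 scale. Over the 6 members the median difference was −0.62 with 5 below 0, beside 0.34 for all genes. At 24 h the response of RBBP5–FKBP cells was lower by 1.84 ± 0.41 for Hmgcs1 (adjusted p = 0.0012) and by 2.24 ± 0.43 for Insig1 (adjusted p = 0.00017), where 8.17% of the 6404 genes were lower. The median difference at 24 h was −2.01 for the members and −0.64 for all genes. The labels of the 2 lines differ in both the tagged protein and the ligand, so protein, ligand and line cannot be told apart. Of 5 ES-cell markers, 4 (Nanog, Zfp42, Pou5f1 and Esrrb) were lower in DPY30–mAID T>C reads at 8 h and none at 24 h, beside 16.1% and 2.72% of all genes. The RBBP5–FKBP cells had 1 lower at 8 h (Sox2) and 2 at 24 h (Sox2 and Nanog), beside 7.52% and 25.9%. Over all libraries, 99.3% of Pou5f1 reads, 86.9% of Zfp42 reads and 28.9% of Nanog reads mapped to more than 1 place. The difference between the responses passed for Sox2 and Nanog at 24 h, as lower in RBBP5–FKBP cells, and for none at 8 h, and their part in the result was not tested.

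In dKO cells, no member passed at 2 h, 4 h or 8 h of auxin, and 5 of the 5 members tested were lower at 24 h and at 48 h. Dhcr7 had at most 5 T>C reads in a dKO library and was not tested. Hmgcs1 had 7.71 and 10.2 T>C CPM before auxin, then 8.07 and 8.15 after 8 h, 5.8 and 2.53 after 24 h and 1.3 and 3.76 after 48 h. The 8 h libraries lay within the range of 0 h, and those of 24 h and 48 h lay below it. The log2 fold change of Hmgcs1 was −0.15 at 8 h (adjusted p = 0.88), −1.10 ± 0.31 at 24 h (adjusted p = 0.0035) and −1.82 ± 0.34 at 48 h (adjusted p = 3.4e-06). Sqle fell by 1.08 and 1.20, Idi1 by 1.49 and 2.55, Lss by 2.90 and 2.22, and Insig1 by 1.52 and 1.23 at 24 h and 48 h. Many genes fell with them. Of the 5965 genes, 0.0% were lower after 2 h, 0.453% after 4 h, 1.12% after 8 h, 42.2% after 24 h and 72.3% after 48 h, and the medians at the last 2 times were −0.80 for all genes and −1.49 for members at 24 h, and −1.29 and −1.82 at 48 h. At an unadjusted p below 0.05, 0 members were lower at 2 h, 4 h and 8 h, and DESeq2 called 0. With T>C library sizes from T>C reads no member passed at 24 h or 48 h, and at 48 h Sqle (0.11) and Insig1 (0.045) then lay above 0. DESeq2 called 4 members at each of these times, without Insig1. Leaving out 1 library in turn left 3 to 4 members at 24 h and 3 to 5 at 48 h, and the calls lost included Hmgcs1 at 24 h without replicate 2 at 0 h (−0.87, adjusted p = 0.082) or at 24 h (−0.64, adjusted p = 0.17). At 24 h Idi1 was at −0.88 without replicate 2 at 0 h (adjusted p = 0.24) and Lss at −1.93 without replicate 1 at 24 h (adjusted p = 0.09), and at 48 h Insig1 was at −0.66 without replicate 1 at 48 h (adjusted p = 0.31).

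The question of a delay in dKO cells was asked directly by the difference between the 2 auxin responses. At 8 h the log2 response of Hmgcs1 was higher in dKO than in DPY30–mAID cells by 1.95 ± 0.48 (adjusted p = 0.046), and 0.275% of the 6901 genes were higher. The call was lost without TMM factors (adjusted p = 0.068) and without any 1 of 8 libraries, namely either dKO library at 0 h or 8 h, any DPY30–mAID library at 0 h, or replicate 2 of DPY30–mAID at 8 h, with values of 1.81 to 2.18. No other member differed by the test at 8 h, where Insig1 was at 0.58 ± 0.59 (adjusted p = 0.74). All 6 members were above 0 then, with a median of 0.85 beside 0.49 for all genes. At an unadjusted p below 0.05, 2 were higher. At 2 h and 24 h no member was higher, as were 0.0% and 0.029% of genes; DESeq2 called 0 at both times, and at an unadjusted p below 0.05 the counts were 1 and 0. None was lower by the test at 24 h either, when 222 of the 6901 genes were lower and 2 higher, 6 of 6 members were below 0 with a median of −0.21 (−0.71 for all genes), and 1 was lower at an unadjusted p below 0.05. With library sizes taken from T>C reads that median was 0.34.

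**Figure D3:**
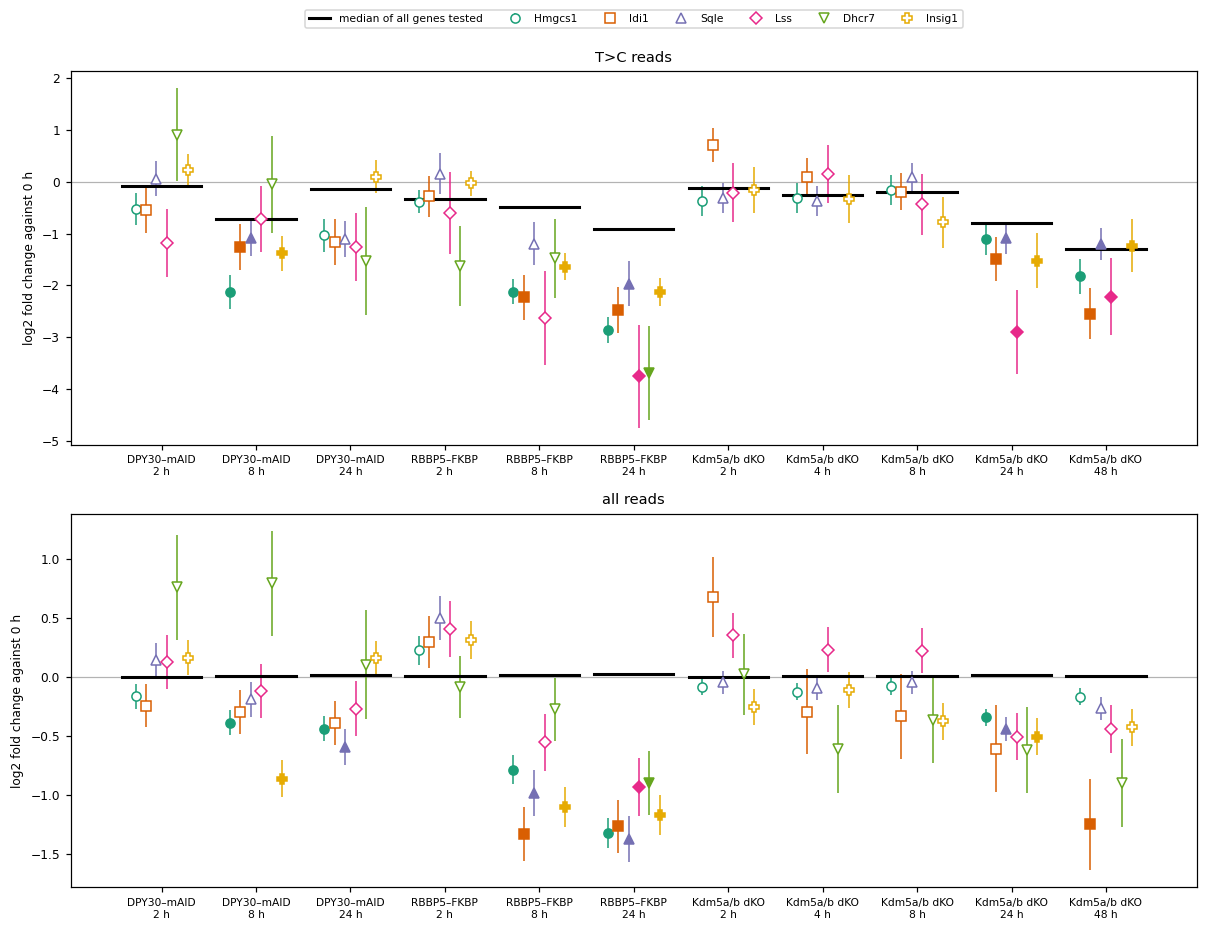
Log2 fold change against 0 h (y axis) of 6 members in T>C reads (top) and all reads (bottom) for each line and time (x axis). Whiskers are the standard error, filled symbols have an adjusted p below 0.05, and thick black bars are the median of all genes tested; in RBBP5–FKBP cells at 24 h, 6 of 6 members are filled and below that bar in both panels.

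Already before auxin, the RNA pool of 5 of 6 members was lower in dKO than in DPY30–mAID cells, as were 21.6% of the 11483 genes tested. Hmgcs1 had 175 and 178 CPM of all reads in dKO cells and 519, 486 and 480 in DPY30–mAID cells (log2 fold change −1.50 ± 0.10 in a fit of both lines, adjusted p = 1.6e-14). The CPM of the lines were scaled separately, and the test was not. Insig1 had 25.2 and 25 CPM against 201, 118 and 176, and Idi1 was lower by 1.98, Lss by 0.84 and Sqle by 0.56. Dhcr7 was the member that was not lower. These libraries differ in the T positions per read and in the share of Insig1 reads that map to more than 1 place, so line and library cannot be told apart. The deleted genes had mean levels of 27.4 CPM (Kdm5a) and 133 CPM (Kdm5b) in dKO and 97.7 and 947 CPM in DPY30–mAID cells at 0 h. The RA-response genes Cyp26a1 and Hoxb1 and 2 of 6 endoderm genes (Sox17 and Dab2, at 6.68 against 0.704 CPM for Dab2) were higher in dKO cells, where 2834 of the 11483 genes were. The other 4 endoderm genes, Gata4, Gata6, Sox7 and Foxa2, did not pass. Of 5 ES-cell markers, 3 were lower (Esrrb, Nanog and Sox2) and 2 higher (Zfp42 and Pou5f1). Over all libraries, 99.3% of Pou5f1 reads, 86.9% of Zfp42 reads and 28.9% of Nanog reads mapped to more than 1 place. For Esrrb and Sox2 this share was 0.989% and 0.059%, so the values of the first 3 are less certain. The part of the RA-response, endoderm and ES-cell genes in the lower sterol genes was not tested.

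All reads, which stand for the RNA pool, were tested in the same libraries. In DPY30–mAID cells, all reads of Hmgcs1 had 366, 359 and 409 CPM at 8 h (−0.39 ± 0.11, adjusted p = 0.0087) and 343, 368 and 384 CPM at 24 h (−0.44 ± 0.11, adjusted p = 0.00088), each set below all 0 h libraries. The 8 h call was lost without replicate 1 at 0 h or replicate 2 at 8 h (adjusted p = 0.0536 and 0.0537) and without TMM factors. Insig1 fell to 90.1, 92.7 and 88.6 CPM at 8 h (−0.86 ± 0.15, adjusted p = 6.1e-05) and had 174, 192 and 184 CPM at 24 h. It thus rose by 1.02 ± 0.15 from 8 h to 24 h (adjusted p = 5.6e-07), the single member that was higher in this contrast, as were 16.0% of genes. In the same contrast Hmgcs1 was at −0.05 (adjusted p = 0.75), and Sqle was lower by 0.40 (adjusted p = 0.04), a call that was lost without replicate 1 or 2 at 24 h or replicate 2 or 3 at 8 h (adjusted p = 0.055 to 0.28), with a value of −0.25 without replicate 2 at 8 h. Sqle was lower at 24 h with 97, 84.1 and 101 CPM beside 127, 156 and 143 at 0 h (−0.59 ± 0.15, adjusted p = 0.002). In all, 0 members were lower at 2 h (0.0305% of the 9848 genes), 2 at 8 h (7.85%) and 2 at 24 h (17.0%), and at 2 h the counts at an unadjusted p below 0.05 and in DESeq2 were also 0.

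In RBBP5–FKBP cells, 4 members were lower in all reads at 8 h (4.96% of the 9676 genes) and 6 at 24 h (4.34%), while 0 were at 2 h (0.0% of genes). At 2 h the count of lower members was also 0 at an unadjusted p below 0.05 and in DESeq2. The median of the members was then 0.30 with 5 of 6 above 0, the libraries of Sqle and Lss were all above those of 0 h, and 1 member, Sqle, was higher at an unadjusted p below 0.05 (0.50, adjusted p = 0.5). Hmgcs1 had 811, 612 and 761 CPM before dTAG-13, then 895, 797 and 859 after 2 h, 423, 443 and 400 after 8 h and 319, 291 and 263 after 24 h. The libraries of 8 h and 24 h were below all earlier ones, and the log2 fold change at 24 h was −1.32 ± 0.13 (adjusted p = 2.1e-07). Sqle fell by 1.38, Idi1 by 1.27, Insig1 by 1.17, Lss by 0.94 and Dhcr7 by 0.90 at 24 h, when the median of all genes was 0.02. The call of Dhcr7 (adjusted p = 0.043) was lost without any 1 library at 0 h and without replicate 2 or 3 at 24 h (adjusted p = 0.074 to 0.16), and that of Lss without replicate 3 at 0 h or replicate 1 or 3 at 24 h (adjusted p = 0.06 to 0.12). That of Dhcr7 was also lost without TMM factors, with no filter on low counts and with a replicate block (adjusted p = 0.052 to 0.073). The response in RBBP5–FKBP minus that in DPY30–mAID cells at 24 h was −0.89 ± 0.17 for Hmgcs1, −1.34 ± 0.24 for Insig1, −0.79 ± 0.25 for Sqle and −0.88 ± 0.31 for Idi1, all past the test beside 5.92% of the 10196 genes. The call of Sqle was lost without replicate 1 of either line at 0 h or replicate 3 of either line at 24 h (adjusted p = 0.072 to 0.101), and that of Idi1 without replicate 1 or 2 of either line at 0 h, replicate 1 or 3 of DPY30–mAID at 24 h or any RBBP5–FKBP library at 24 h (adjusted p = 0.053 to 0.18). At 8 h no member differed by the test in that comparison (0.883% of genes were lower; 4 members were at an unadjusted p below 0.05, and DESeq2 called Sqle and Idi1).

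In dKO cells all reads gave 0 members lower at 2 h (0.0% of the 11394 genes), 4 h (0.0%) and 8 h (0.439%), 3 at 24 h (6.02%) and 1 at 48 h (7.93%). Hmgcs1 had 146 and 132 CPM at 24 h beside 175 and 178 at 0 h (−0.34 ± 0.07, adjusted p = 0.0068) and was at 160 and 154 at 48 h (adjusted p = 0.14). Sqle (−0.44 ± 0.10) and Insig1 (−0.51 ± 0.16) also passed at 24 h, and Idi1 (−1.25 ± 0.39, adjusted p = 0.042) at 48 h, while DESeq2 called neither Insig1 at 24 h nor Idi1 at 48 h. Idi1 had 15.1 and 37.5 CPM at 0 h and 5.92 and 16.4 at 48 h, so the groups overlapped, and its value was −0.44 without replicate 2 at 0 h (adjusted p = 0.54) and −0.70 without replicate 1 at 48 h (adjusted p = 0.21). The median of the members was −0.51 at 24 h and −0.44 at 48 h, with 6 of 6 below 0. Leaving out 1 library in turn left 0 to 2 members at 24 h. Hmgcs1 was lost without replicate 2 at 24 h (adjusted p = 0.098), Sqle without replicate 1 at 0 h or either library at 24 h (adjusted p = 0.064 to 0.073) and Insig1 without any 1 of the 4 libraries at 0 h and 24 h (adjusted p = 0.12 to 0.18). DESeq2 also called 0 at the first 3 times, and at an unadjusted p below 0.05 the counts were 0, 0 and 1.

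**Figure D4:**
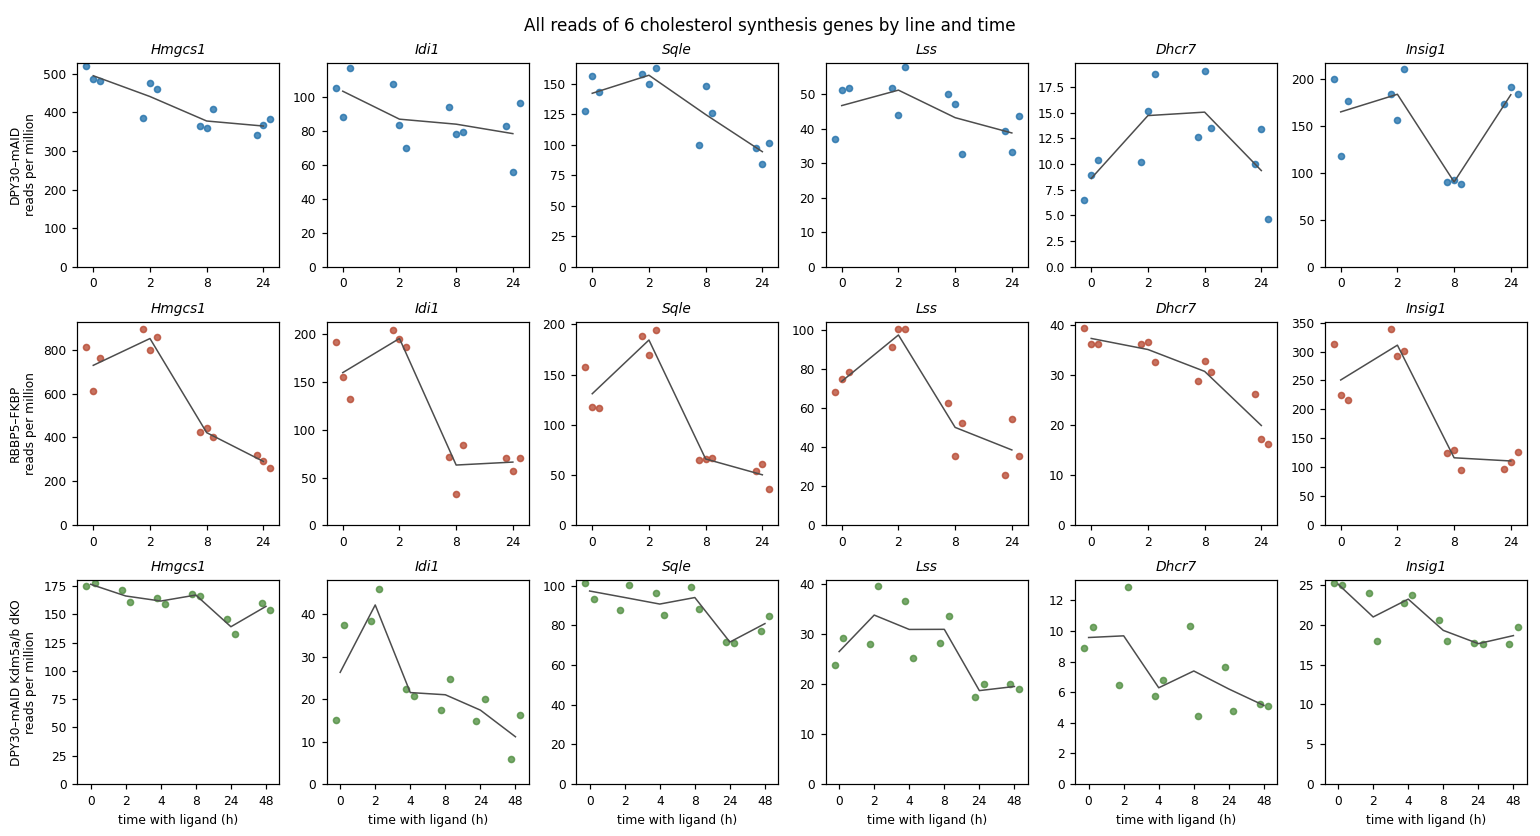
All reads as CPM (y axis) of 6 members (columns) against hours of ligand (x axis) in 3 lines (rows). Points are libraries and lines join the means; the Insig1 pool in DPY30–mAID cells dips to 88.6–92.7 at 8 h and is at 174–192 at 24 h, whereas in RBBP5–FKBP cells it is still at 96.5–127.

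Other genes of sterol metabolism were read from whole lists. Of the cholesterol synthesis genes that are not members, 3 of 8 tested passed as lower in DPY30–mAID T>C reads at 8 h and 0 at 24 h, beside 16.1% and 2.72% of all genes. Among 7 tested in RBBP5–FKBP cells, 3 passed at 8 h and 4 at 24 h, beside 7.52% and 25.9%. None passed as higher in these 4 comparisons. Msmo1, which removes methyl groups from the sterol ring, was lower in DPY30–mAID T>C reads at 8 h (−1.02 ± 0.37, adjusted p = 0.048). In RBBP5–FKBP cells at 24 h, Msmo1 was at −1.84 ± 0.28 and the desaturase Sc5d at −1.45 ± 0.55, both past the test. Not all of the pathway moved this way. In all reads of DPY30–mAID cells at 8 h, 4 of 13 of these genes were higher and 1 was lower, where 524 and 773 of the 9848 genes tested were. The higher ones included Ebp (0.84 ± 0.24), the sterol isomerase, and the mevalonate kinase Mvk (0.81 ± 0.27).

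Of the uptake and transport genes, the sterol carrier Stard4 was lower in RBBP5–FKBP T>C reads at 8 h (−1.72 ± 0.51, adjusted p = 0.027) and at 24 h (−2.33 ± 0.53, adjusted p = 0.00062), and Tmem97 at 24 h (−1.81 ± 0.48, adjusted p = 0.003). Srebf2, which encodes SREBP2, had 9.26 to 25 T>C CPM at 0 h in DPY30–mAID cells and passed no test against 0 h there or in RBBP5–FKBP cells, in T>C or all reads. In dKO cells it was lower in T>C reads at 24 h and 48 h, beside 42.2% and 72.3% of all genes. Both of these calls were lost with library sizes taken from T>C reads (−0.65 and −0.75, adjusted p = 0.41 and 0.36). Of the 7 fatty acid targets of SREBP tested in T>C reads, DPY30–mAID cells had 2 lower after 8 h and 3 after 24 h, and RBBP5–FKBP cells 3 and 5, beside 16.1%, 2.72%, 7.52% and 25.9% of all genes, and none was higher. Fasn, the fatty acid synthase, was at −2.08 ± 0.47 (8 h) and −3.49 ± 0.52 (24 h) in the T>C reads of DPY30–mAID cells and at −2.24 ± 0.40 (8 h) and −2.55 ± 0.41 (24 h) in those of RBBP5–FKBP cells, with adjusted p of 0.002, 4.9e-05, 8.6e-05 and 2.2e-06.

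In DMSO cells some members were lower at 8 h of RA and all 6 by day 2. RA, the loss of LIF and time in culture cannot be told apart, since all times were set against cells at 0 h. Of 6 members, 4 were lower at 8 h (9.08% of the 11415 genes tested), 5 on day 1 (25.5%), 6 on day 2 (22.9%) and 6 on day 4 (25.6%), all against the same 2 libraries at 0 h. Hmgcs1 had 383 and 361 CPM before RA, 257 and 237 after 8 h, 97.6 and 97.7 on day 1, 143 and 134 on day 2, 171 and 182 on day 4 and 177 on day 6. It was lowest on day 1, at −1.93 ± 0.12 (adjusted p = 3.3e-13), and on day 4 it was at −1.07 ± 0.11 (adjusted p = 3.1e-09). Insig1 had 50.4 and 56 CPM at 0 h, 25 and 17.8 on day 1 (−1.31 ± 0.20) and 27.1 and 27.7 on day 4. Sqle went from 112 and 107 CPM to 44.1 and 61.2 at 8 h (−1.04 ± 0.15, adjusted p = 1.4e-05) and was at 71.6 and 66.2 on day 4. Dhcr7 had 26.2 and 29.3 CPM at 0 h and 11.9 and 9.2 on day 1 (−1.39 ± 0.27), and Lss 26.7 and 20.4 at 0 h and 10.8 and 4.6 on day 1 (−1.59 ± 0.37). At 8 h the calls of Insig1 and Dhcr7 were lost without replicate 2 at 0 h or either library at 8 h (adjusted p = 0.056 to 0.11), and DESeq2 did not make them. The calls of Lss and Idi1 on day 2 were lost without replicate 1 at 0 h or replicate 2 on day 2 (adjusted p = 0.19 to 0.31). Without the latter they were at −0.49 and −0.60, and without the former Idi1 was at −0.78, and DESeq2 did not make that of Lss. The Lss call on day 4 was lost without replicate 1 at 0 h or on day 4 (adjusted p = 0.08 and 0.083) and in DESeq2.

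Srebf2 went from 144 and 126 CPM to 48.3 and 28.2 on day 1 (−1.82 ± 0.19) and 83.4 and 74.4 on day 4. Insig2, the second INSIG gene, moved the other way on day 1 (0.81 ± 0.20, adjusted p = 0.0017). Other uptake genes were higher on day 4, when 7 of the 13 tested rose and 3 fell, beside 3276 and 2917 of all 11415 genes, with the lysosomal lipase Lipa at 5.93 ± 0.32, the lipoprotein receptor Vldlr at 3.68 ± 0.32, the cholesterol esterifying enzyme Soat1 at 2.93 ± 0.21 and the endocytic receptor Lrp2 at 2.82 ± 0.30. ES-cell markers fell over the same days, 5 of 5 on day 4, and endoderm markers rose, 6 of 6 on day 4. Their part in the sterol genes was not tested.

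**Figure D5:**
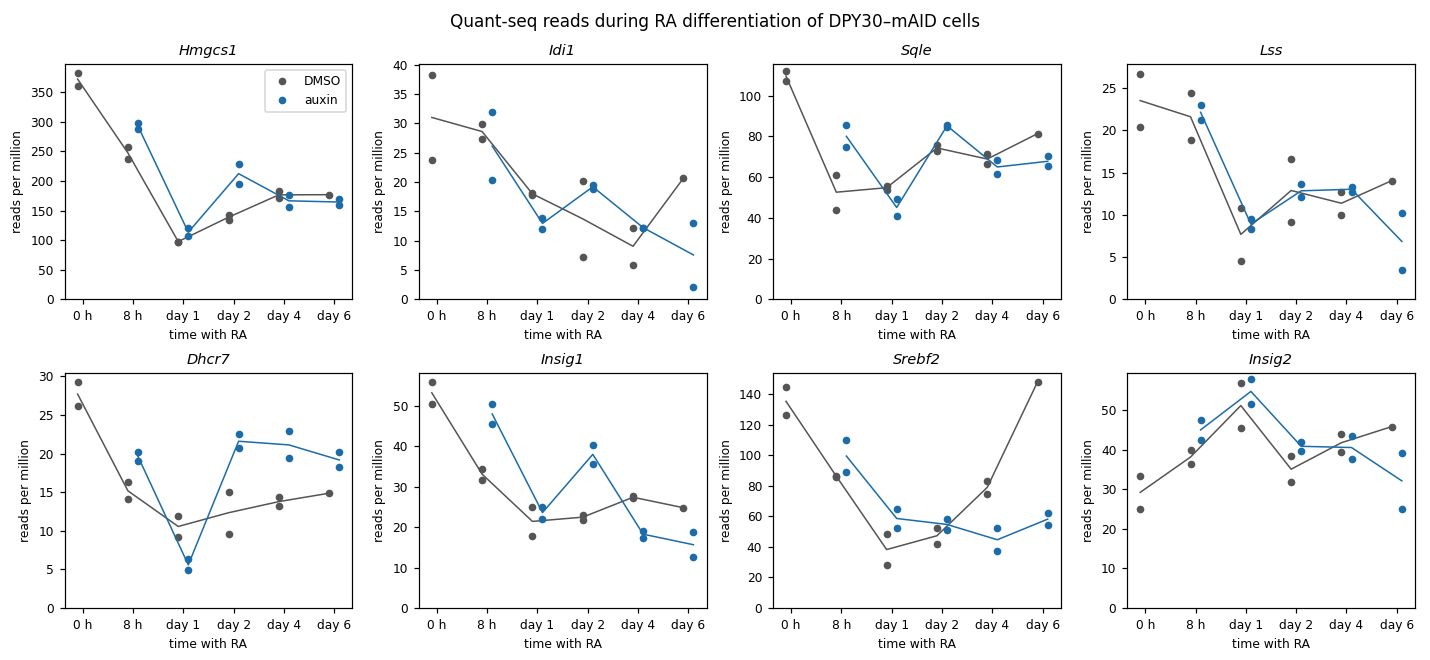
Quant-seq reads as CPM (y axis) of 6 members, Srebf2 and Insig2 over the RA course (x axis, not to scale in time) with DMSO (grey) or auxin (blue). Points are libraries and lines join the means; Hmgcs1 falls from 361–383 at 0 h to 97.6–97.7 on day 1 with DMSO, and on day 2 it is at 195–229 with auxin beside 134–143 with DMSO.

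With auxin during RA, 3 members were higher than with DMSO on day 2, when 5.96% of genes were higher. Hmgcs1 had 195 and 229 CPM beside 143 and 134 (0.61 ± 0.11, adjusted p = 0.0005), Insig1 had 40.3 and 35.6 beside 21.8 and 23.1 (0.76 ± 0.21, adjusted p = 0.016) and Dhcr7 had 22.5 and 20.7 beside 15.1 and 9.62 (0.82 ± 0.27, adjusted p = 0.042). The Hmgcs1 call held without any 1 library. That of Insig1 was lost without replicate 1 with auxin or either DMSO library (adjusted p = 0.074 to 0.14), that of Dhcr7 without either auxin library or replicate 2 with DMSO (adjusted p = 0.11 to 0.37, with a value of 0.52 without the latter), and DESeq2 called Hmgcs1 alone. No member was higher at 8 h (0.0526% of genes), on day 1 (4.27%) or on day 4 (7.78%), by edgeR or DESeq2, and at an unadjusted p below 0.05 the counts were 3, 0 and 1. At these times none was lower by edgeR or DESeq2, and 1 was lower at an unadjusted p below 0.05 on day 1 (Dhcr7, −0.90, adjusted p = 0.17) and on day 4 (Insig1, −0.58, adjusted p = 0.07). Sqle was nearest at 8 h, with 74.7 and 85.5 CPM beside 44.1 and 61.2 (0.59 ± 0.16, adjusted p = 0.073). On day 4, Srebf2 was lower with auxin, at 37.2 and 52 CPM beside 83.4 and 74.4 (−0.82 ± 0.20, adjusted p = 0.0038). This call was lost without replicate 1 with auxin or with DMSO (adjusted p = 0.103 and 0.0516). On day 6, Hmgcs1 had 159 and 170 CPM with auxin and 177 with DMSO. Endoderm markers were lower with auxin on day 2 (4 of 6) and day 4 (6 of 6), where 843 and 1189 of the 11415 genes were, and their part was not tested.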

How the data were processed

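The authors made QuantSeq libraries, which carry no molecular identifiers, and deposited counts of all reads and of T>C reads per 3′ UTR interval made with SlamDunk 0.3.4 on GRCm38, as the file headers say; for Quant-seq, the submitters' processing notes name HISAT2 2.2.1 and featureCounts instead. The filter for at least 2 conversions in the methods was not repeated. Intervals were summed per gene. Genes whose mean reached 10 reads in some group were tested with edgeR 4.0.16 (quasi-likelihood, Benjamini-Hochberg over all genes), with T>C library sizes set by all reads and their TMM factors, as the study scaled to total reads. Members passed at an adjusted p below 0.05. DESeq2 1.42.0, other scalings, no filter, a replicate block and leaving out libraries were alternatives. The fits were tested on simulated data. Named genes were the members, the main sterol regulators, and up to 5 of each list with the largest change; some listed genes are not reported here. The members and lists were chosen with earlier results of these data known. The study calls the replicates biological, and where no label ties them to separate cultures, p-values measure the spread between these samples.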

Additional observations from a re-analysis of the deposited data

Results flagged for a closer look

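Each value in this paragraph is a difference between the responses of 2 lines that passed the test of the difference itself. The Hmgcs1 response in T>C reads at 8 h of auxin was higher in dKO than in DPY30–mAID cells by 1.95 on the log2 scale, a call lost without TMM factors (adjusted p = 0.068) and without any 1 of 8 libraries (adjusted p = 0.067 to 0.45). At 24 h, the T>C response in RBBP5–FKBP minus that in DPY30–mAID cells was −1.84 for Hmgcs1 and −2.24 for Insig1. In all reads at 24 h the same difference was −0.89 for Hmgcs1, −1.34 for Insig1, −0.79 for Sqle and −0.88 for Idi1. The Sqle call was lost without any 1 of 4 libraries (adjusted p = 0.072 to 0.101), and that of Idi1 without any 1 of 9 (adjusted p = 0.053 to 0.18) and without TMM factors (adjusted p = 0.065). Insig1 gave the largest of the 4 differences in all reads, with levels in all reads at 24 h of 174 to 192 CPM in DPY30–mAID and 96.5 to 127 CPM in RBBP5–FKBP cells.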

How the results depend on the processing

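Counts are of members past the test, lower unless stated. Without TMM factors they were 2 in DPY30–mAID T>C reads at 8 h, 1 in all reads at 8 h, 0 in the dKO difference at 8 h (higher), 1 in the difference between the degron lines in all reads at 8 h, and 1 higher with auxin at RA 8 h and day 4. With T>C scaling they were 1 and 3 in DPY30–mAID T>C reads at 8 h and 24 h, 1 higher from 8 h to 24 h, 2 in RBBP5–FKBP cells at 24 h and 0 in dKO cells at 24 h and 48 h, where Sqle (0.11) and Insig1 (0.045) reversed. DESeq2 gave 2 in DPY30–mAID T>C reads at 24 h, 1 in all reads of RBBP5–FKBP cells from 8 h to 24 h, 0 in all reads of dKO cells at 48 h, 2 in the degron difference in all reads at 8 h, 2 at RA 8 h and 1 higher with auxin on day 2. With no filter on low counts the counts in all reads were 1 in RBBP5–FKBP cells from 8 h to 24 h, 1 higher, 5 and 2 in dKO cells at 2 h, 24 h and 48 h, and 1 in the degron difference at 8 h. Asking also for a log2 fold change beyond 1 gave, in all reads, 0 in DPY30–mAID cells at 8 h, at 24 h and from 8 h to 24 h, 2 in RBBP5–FKBP cells at 8 h, 0 in dKO cells at 24 h, 3 for dKO cells at 0 h and 1 in the degron difference at 24 h, and 1 at RA 8 h and 0 higher with auxin on day 2.

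With 1 library left out in turn, the counts ranged from 2 to 4 in DPY30–mAID T>C reads at 8 h, 1 to 2 higher from 8 h to 24 h, 1 to 2 in all reads at 8 h and 0 to 1 from 8 h to 24 h. They ranged from 3 to 4 and 3 to 5 in dKO T>C reads at 24 h and 48 h, 0 to 2 and 0 to 1 in all reads, and 0 to 1 in the dKO difference at 8 h. The degron difference in all reads gave 0 to 1 at 8 h and 2 to 4 at 24 h, RBBP5–FKBP cells in all reads 0 to 1 from 8 h to 24 h, RA 8 h 2 to 4 and auxin on day 2 1 to 2 higher. Without DPY30–mAID replicate 2 at 0 h, Insig2 at 0 h reversed to 0.65 in dKO cells, and without replicate 1 it was −0.31. Replicate numbers did not pair the libraries (0 of 18 pairs in each degron line and 0 of 30 in dKO cells correlated above 0.1 in T>C reads, and in all reads 0 of 18 in DPY30–mAID, 1 of 18 in RBBP5–FKBP, 6 of 30 in dKO and 4 of 90 in Quant-seq libraries), and the replicate block moved no count of members by over 1.5 times; it lost 1 member call, Dhcr7 in all reads of RBBP5–FKBP cells at 24 h (−0.91, adjusted p = 0.053). The cause of these changes was not tested. Lss and Dhcr7 had few T>C reads, which limits the precision of their values.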

Other observations

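The genes whose Quant-seq levels were most like the mean of the members were sought over the 21 distinct libraries, among 5793 other genes whose mean reached 50 reads. By Pearson correlation of log2 CPM, the first were Ipo5 (0.895), Wapl (0.893), Afg3l2 (0.890), Ercc3 (0.881) and Rbm27 (0.878), followed by Ipo4, Mfsd10, Ipo11, Ddx21 and Zfp532. Among the listed sterol genes, Tmem97 stood at rank 17 (0.837). The members themselves followed the mean of the other members unevenly, from 0.868 for Hmgcs1 to 0.516 for Idi1. These libraries share their RA course, which most genes follow, so the values are a description.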
